A study of Mus musculus with 24 samples.

Results

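Peroxiredoxins are enzymes that remove hydrogen peroxide with a reactive cysteine, and the genes described here are the peroxiredoxins Prdx1 to Prdx6, the sulfiredoxin gene Srxn1, the mitochondrial thioredoxin gene Txn2 and the thioredoxin reductase genes Txnrd1 and Txnrd2. The members were chosen by name, as every probe set whose gene symbol in the platform annotation is 1 of these 10 genes. The annotation names 18193 genes as the sole symbol of a probe set, 7 of them members. Of 45101 probe sets on the array, 21 met that rule, and they belong to 7 of the 10 genes: Srxn1 (4), Txn2 (3), Txnrd1 (3), Txnrd2 (4), Prdx2 (2), Prdx3 (1) and Prdx4 (4). The annotation lists 5 probe sets for Prdx1 only jointly with another gene symbol, so none is named, and Prdx5 and Prdx6 have no listed probe set, so these 3 genes are without values here. Of the 21 probe sets, 18 passed the filter on low signal and were tested, and the other 3 (Prdx4 1431269_at, Txnrd1 1424486_a_at and Txnrd1 1424487_x_at) are given by their values alone.

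The tissue was the whole adrenal gland of male mice of 3 months, labelled C57B/6J, all wild type. The mice were first kept for 2 weeks with 12 h of light in each day, then left without light, and glands were collected in steps of 4 h, the earliest 38 h and the latest 82 h after the lights went off. There were 2 arrays for each of 12 time points and 24 in all, and the groups used here are the 6 projected circadian times 2, 6, 10, 14, 18 and 22, which are the hours after lights off minus 12, modulo 24. All groups share strain, sex, age and darkness, each holds 2 successive days, and the labels set them apart by the hour of death. The labels do not say whether arrays came from separate animals or pools, so p-values measure the spread between these arrays, which may be technical.

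In the cycle that these genes form, the catalytic cysteine of a peroxiredoxin is oxidised by peroxide, thioredoxin reduces it, and a thioredoxin reductase then recharges thioredoxin with NADPH. At high peroxide the cysteine is oxidised further and the enzyme is shut off until sulfiredoxin, the product of Srxn1, restores it. Prdx3, Txn2 and Txnrd2 work in mitochondria, Prdx4 works in the endoplasmic reticulum, and Prdx2 and Txnrd1 work mainly in the cytosol. The adrenal cortex makes steroids in its mitochondria with enzymes that leak reactive oxygen, and the alternation of oxidised Prdx3 and sulfiredoxin over the day is known from this gland.

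The arrays of circadian times 10 and 18 stood apart from the other 16. Their signal of the ThrX-3 control was 513 to 1858, against 56.3 to 101, and their ratio of 5′ to 3′ Gapdh signal was 0.0386 to 0.978, against 1.03 to 1.15. They are called the second array set below, and circadian times 2, 6, 14 and 22 the first. In 6 pairs of arrays, 5 of them across time points, the lower signal was within 5% of the higher in every probe set with both signals of at least 50, while among the remaining 30 pairs with a shared circadian time that gap reached at least 74.2% in some probe set. Each such pair was averaged and counted as 1 sample, which leaves 18 profiles, 3 for each circadian time.

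The gland's defining markers were present in all profiles, with Star at 13.44 to 13.72 and Th, the enzyme that starts catecholamine synthesis in the medulla, at 11.82 to 12.72 on the log2 scale. Markers of other tissues reached higher sums in the second array set, although the ranges of the sets overlapped for every list. The summed signal of 9 skeletal muscle genes, 3 of them at 0 in some profile, was 1306 to 1638 in the first set and 1161 to 39415 in the second. The summed signal of 6 of 8 liver genes was 1165 to 2893 against 1871 to 18677, that of 3 of 8 red blood cell genes was 637 to 855 against 821 to 1724, and that of 7 macrophage genes was 9528 to 15675 against 14544 to 17148. The sums were 21302 to 37722 and 24861 to 37935 for 5 of 7 fat genes, and 35524 to 44712 and 35174 to 43244 for 7 of 8 medulla genes. The 8 cortex genes summed to 73676 to 78376 in the first set and 61135 to 75092 in the second. The part of these values in the results below was not tested, and in a whole gland fewer cells of a type and less RNA per cell cannot be told apart.

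The sequences before the start sites of Srxn1 and Txn2 are shown because these are the members whose signals followed the time of day most clearly. They are the 250 bases 5′ of the annotated start in the RefSeq table for GRCm38.p6, at chr2:152105274-152105523 on the plus strand for Srxn1 and at chr15:77928995-77929244 on the minus strand for Txn2. Capitals mark matches on either strand to any of 5 short motifs.
Srxn1: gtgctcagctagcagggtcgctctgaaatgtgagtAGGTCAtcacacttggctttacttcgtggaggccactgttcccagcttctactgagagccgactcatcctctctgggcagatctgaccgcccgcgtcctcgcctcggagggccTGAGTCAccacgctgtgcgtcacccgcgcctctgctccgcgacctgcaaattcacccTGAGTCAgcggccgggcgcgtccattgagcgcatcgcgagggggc
Txn2: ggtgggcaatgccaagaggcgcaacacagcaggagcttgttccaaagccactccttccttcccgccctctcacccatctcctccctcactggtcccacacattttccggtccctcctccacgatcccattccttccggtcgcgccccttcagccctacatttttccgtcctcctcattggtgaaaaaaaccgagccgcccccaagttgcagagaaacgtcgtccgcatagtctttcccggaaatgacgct
The motifs searched were TGACNNNGC (the core of the antioxidant response element bound by NRF2), CACGTG (an E-box, bound by CLOCK and BMAL1), TTATGTAA (a D-box, bound by DBP), AGGTCA (the half-site of nuclear receptors such as REV-ERB) and TGAGTCA (the AP-1 type core, added after the windows had been read). Windows for counting ran on to 50 bases after the start, 300 bases in all. In that window Srxn1 has TGAGTCA at -102 and -45 and AGGTCA at -215 from the start, and, beyond the printed bases, AGGTCA at 32, which overlaps a minus-strand match of TGACNNNGC from 29 to 37. Txn2 has no match to the 5 motifs in its window. Of the 32851 windows in the table, 5.2% hold TGAGTCA, 16.3% AGGTCA, 12.4% TGACNNNGC, 7.15% CACGTG and 0.938% TTATGTAA. Of the 10 member genes 9 have a window, and Prdx6 is the one without. Prdx4 has CACGTG at -52, Prdx3 has AGGTCA at -190, Txnrd2 has AGGTCA at -162, 1 of the 3 windows of Txnrd1 has TGACNNNGC at -92, and Prdx1 has TGACNNNGC at -133 overlapping TGAGTCA at -131, with a further TGAGTCA at -237. Prdx2, Prdx5 and the other windows of Txnrd1 have no match. These matches describe the letters of the windows and do not show binding.

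Levels are given as log2(signal + 51.04), with 51.04 as the 10th percentile of the values in the series, and differences on this scale understate the change of dim probe sets. A 24 h cosine was fitted with limma to all 27022 probe sets past the filter, with the array set as a block, and p-values were adjusted over all of them by Benjamini-Hochberg with a threshold of 0.05. Amplitude is the fitted distance from mean to peak in log2 units. In this fit 5 of the 18 member probe sets were rhythmic, 2 of Srxn1 and 3 of Txn2, where 15.9% of all tested probe sets were. Without the array set term 5 members passed against 10.2% of all: 1 of Srxn1, the 3 of Txn2 and 1 of Txnrd2. At circadian times 2, 6, 14 and 22 alone 7 members passed against 10.1%: 3 of Srxn1, 3 of Txn2 and 1 of Txnrd1. The probe sets of a gene read the same RNA samples and are not independent, and the 5 calls with the block are those of 2 genes. The median amplitude of the 18 was 0.12 log2 units, beside 0.10 for all tested, and 2 members, both of Srxn1, were among the 252 called probe sets with an amplitude of at least 0.5.

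In the first array set Srxn1 had its highest mean in the early subjective night, at circadian time 14, and its lowest in the early subjective day, at 2. In the second set 1 of its 4 probe sets, 1426875_s_at, was higher at circadian time 18 than at 10. For 1426875_s_at the 3 profiles of the first array set read 10.54, 10.49 and 10.59 at circadian time 2, 10.76, 10.53 and 10.92 at 6, 11.39, 11.51 and 11.40 at 14, and 11.30, 10.96 and 10.76 at 22. In the second set they read 10.27, 10.67 and 10.29 at circadian time 10 and 11.08, 11.17 and 11.19 at 18. All profiles of circadian time 14 lay above every profile of the other times, and all of circadian time 18 lay above every one of circadian times 2, 6 and 10. The fitted amplitude was 0.51 ± 0.07 (SE), a peak-to-trough ratio of 2.03, with the peak at circadian time 16.3 ± 0.48 h (limma, adjusted p = 0.000253, 18 profiles). The same fit put the second array set at -0.47 ± 0.10 from the first. That value rests on the cosine shape, since levels particular to circadian times 10 and 18 cannot be told apart from the array set. Without the array set term the peak was at 17.2 ± 0.85 h. The order of the mean levels was 14, 18, 22, 6, 2 and 10. The neighbours 18 and 22, and 2 and 10, were closer than the pooled SD within a time of 0.17.

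**Figure D1:**
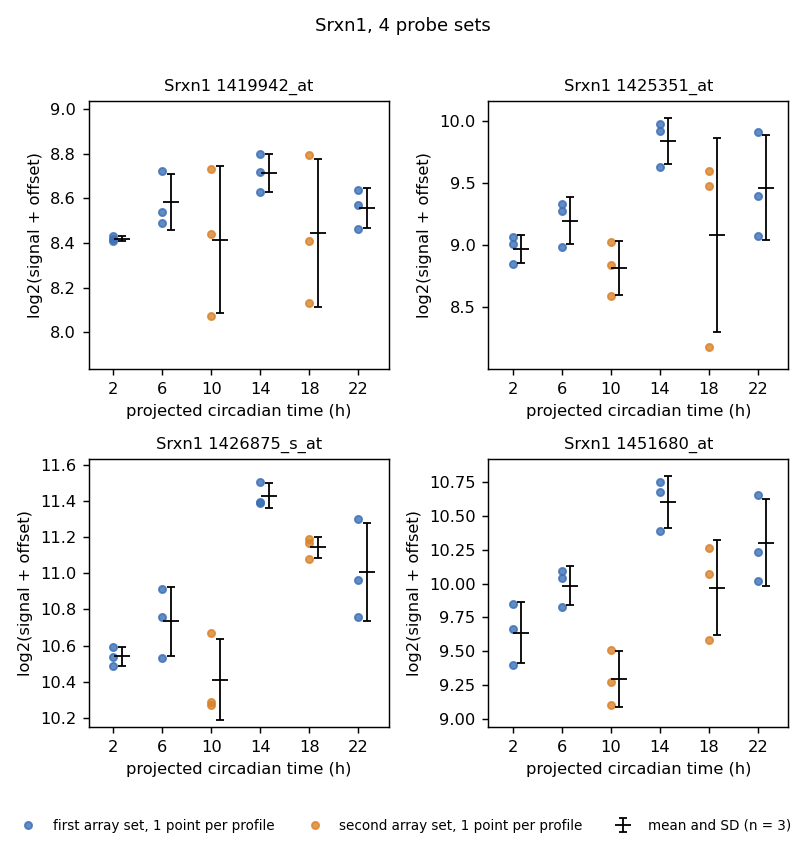
Log2(signal + offset) of the 4 probe sets of Srxn1 (vertical axes, each with its own range) at the 6 projected circadian times in hours (horizontal axes). Points are profiles, blue for the first array set and orange for the second, and bars are the mean and SD of 3 profiles. In 1426875_s_at the mean is 11.43 at circadian time 14 and 10.41 at 10, and in 1425351_at 1 profile of circadian time 18 lies at 8.18, apart from 9.47 and 9.59.

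The second probe set of Srxn1, 1451680_at, had the same order of means in the first array set, with circadian time 14 highest and 2 lowest. Its profiles read 9.66, 9.40 and 9.85 at circadian time 2, 10.04, 9.82 and 10.09 at 6, 10.39, 10.75 and 10.67 at 14, and 10.65, 10.24 and 10.02 at 22. At circadian time 10 they read 9.10, 9.51 and 9.27, and at 18 10.07, 10.26 and 9.58. Circadian times 14 and 2, and 18 and 10, did not overlap, and times 14 and 22 did. The amplitude was 0.51 ± 0.09 with the peak at 16.3 ± 0.65 h (limma, adjusted p = 0.00321), and without the array set term it was 0.32 ± 0.14 (adjusted p = 0.235). The fitted difference of the second set from the first was -0.82 ± 0.14.

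The remaining probe sets of Srxn1 did not pass. For 1425351_at the profiles read 9.01, 8.84 and 9.06 at circadian time 2, 9.27, 8.98 and 9.33 at 6, 9.63, 9.98 and 9.91 at 14, 9.91, 9.40 and 9.07 at 22, 8.59, 9.02 and 8.84 at 10, and 9.47, 9.59 and 8.18 at 18. The lowest of all is the profile of 78 h replicate 2, the array with the Gapdh ratio of 0.0386. The amplitude was 0.43 ± 0.13 with a peak at 15.4 h (limma, adjusted p = 0.0579), and 0.48 without that profile (adjusted p = 0.00258). It passed under 9 of 31 alternatives, with adjusted p-values of 0.00258 to 0.493. The dimmest, 1419942_at, had means of 8.42 to 8.72 and an amplitude of 0.13 ± 0.07 (adjusted p = 0.393). Over the 18 profiles, after the mean of each array set was taken off, 1426875_s_at correlated with 1451680_at at r = 0.91 and with 1419942_at at r = 0.37, values that share the same RNA and are given as a description.

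Within the first array set alone the pattern of Srxn1 was similar. A 24 h cosine over circadian times 2, 6, 14 and 22 gave amplitudes of 0.45 ± 0.06 for 1426875_s_at (limma, adjusted p = 0.002), 0.46 ± 0.09 for 1451680_at (adjusted p = 0.0145) and 0.43 ± 0.09 for 1425351_at (adjusted p = 0.0176), with peaks from 15.4 to 15.6 h. A test of any difference among these 4 times called 6 members, against 8.53% of all tested probe sets, and they were the same 3 probe sets of Srxn1 (adjusted p = 0.00448, 0.0127 and 0.0346) and the 3 of Txn2. Within the second set, 1426875_s_at was higher at circadian time 18 than at 10 by 0.74 ± 0.13 (limma, adjusted p = 0.0211). That call was lost under 5 of 28 alternatives. For 1451680_at the same difference was 0.68 ± 0.19 (adjusted p = 0.088), and 0.87 without 78 h replicate 2 (adjusted p = 0.0133).

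Txn2, the thioredoxin that reduces Prdx3 in mitochondria, had its highest mean of the first array set in the late subjective night, at circadian time 22, and its lowest at 6 in all 3 of its probe sets. In the second set all 3 were higher at circadian time 18 than at 10. For 1452782_a_at the profiles of the first array set read 11.69, 11.54 and 11.76 at circadian time 2, 11.72, 11.63 and 11.37 at 6, 11.97, 11.87 and 11.83 at 14, and 12.13, 12.00 and 11.94 at 22. In the second set they read 10.62, 10.78 and 10.87 at circadian time 10 and 11.68, 11.64 and 11.56 at 18. The 3 profiles of circadian time 10 lay below all other profiles of the series. The amplitude was 0.39 ± 0.05, a ratio of 1.73, with the peak at 19.1 ± 0.52 h (limma, adjusted p = 0.000135).

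The other probe sets of Txn2 rose and fell over a smaller range. For 1421557_x_at the profiles read 12.09, 12.07 and 12.14 at circadian time 2, 12.13, 12.00 and 11.89 at 6, 11.77, 11.82 and 11.95 at 10, 12.26, 12.20 and 12.14 at 14, 12.26, 12.43 and 12.27 at 18, and 12.40, 12.27 and 12.27 at 22. For 1455640_a_at they read 12.14, 12.11 and 12.15 at circadian time 2, 12.15, 12.06 and 11.94 at 6, 11.88, 11.97 and 12.16 at 10, 12.32, 12.20 and 12.12 at 14, 12.44, 12.52 and 12.37 at 18, and 12.43, 12.36 and 12.29 at 22. In both, circadian times 18 and 22 lay above times 2, 6 and 10 without overlap. Their amplitudes were 0.23 ± 0.03 with a peak at 19.3 h (limma, adjusted p = 0.000285) and 0.22 ± 0.03 with a peak at 19.5 h (adjusted p = 0.00065), ratios of 1.37 and 1.35. All 3 also passed without the array set term, with adjusted p = 0.0415 for 1452782_a_at, 0.0014 for 1421557_x_at and 0.00125 for 1455640_a_at. In that fit the peak of 1452782_a_at moved to 21.2 ± 0.97 h. Those of 1421557_x_at and 1455640_a_at were at 19.9 and 19.5 h.

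**Figure D2:**
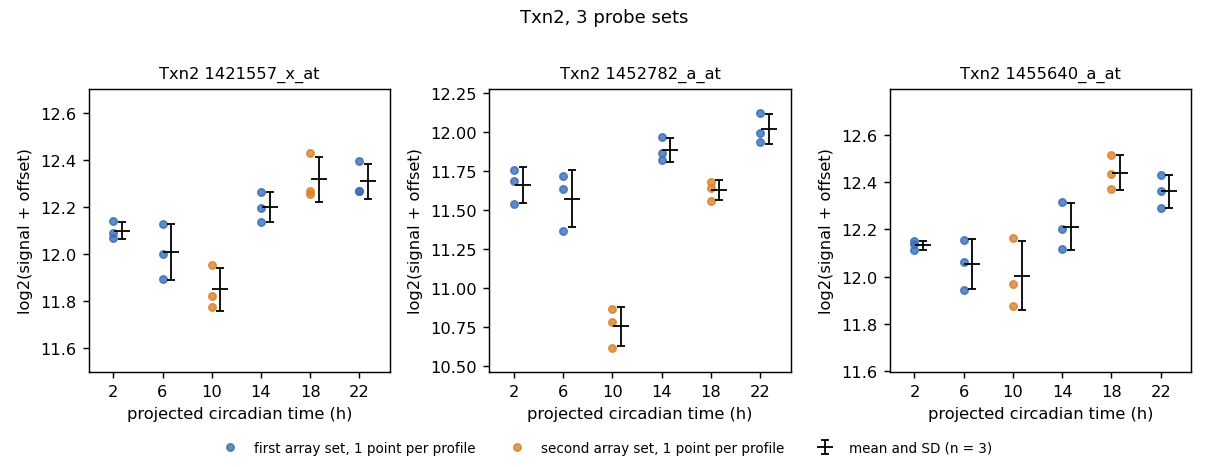
Log2(signal + offset) of the 3 probe sets of Txn2 (vertical axes, each with its own range) at the 6 projected circadian times in hours (horizontal axes), blue for profiles of the first array set and orange for the second, with the mean and SD of 3 profiles. Means are lowest at circadian time 10 in each panel, at 11.85, 10.75 and 12.00 from left to right, and the drop at that time is larger in the middle panel, 1452782_a_at.

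The probe sets of Txn2 differ in how far the second array set stands from the first. The fitted difference of the second set from the first was -0.67 ± 0.08 for 1452782_a_at, -0.10 ± 0.05 for 1421557_x_at and 0.01 ± 0.05 for 1455640_a_at. With the mean of each array set taken off, the 3 probe sets correlated at r = 0.96 to 0.98 over the 18 profiles. Within the first set their amplitudes were 0.28 ± 0.05 for 1452782_a_at (limma, adjusted p = 0.0118), 0.18 ± 0.03 for 1421557_x_at (adjusted p = 0.0139) and 0.18 ± 0.04 for 1455640_a_at (adjusted p = 0.0191). Within the second set, circadian time 18 was above 10 by 0.87 ± 0.10 for 1452782_a_at (adjusted p = 0.00718), 0.47 ± 0.08 for 1421557_x_at (adjusted p = 0.0219) and 0.44 ± 0.09 for 1455640_a_at (adjusted p = 0.0351). Those calls were lost under 4 of 27 alternatives for 1452782_a_at, 5 of 27 for 1421557_x_at and 8 of 28 for 1455640_a_at. The fitted peaks of Txn2 fell later than those of Srxn1, and that difference was not tested.

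Between circadian times 18 and 10, 4 member probe sets were higher at 18, against 2.97% of all tested, and 1 was lower, against 2.56%. The higher ones were the 3 of Txn2 and 1426875_s_at of Srxn1, and the lower one was Prdx3. This comparison has 3 profiles on each side and depends on them: without 46 h replicate 1, or without the averaged pair of 70 h, limma called 0 members, with 7 and 8 members at an unadjusted p under 0.05. Of all probe sets it called 9 and 0 in these fits, against 1493 with every profile, so the loss is not particular to the members. Leaving out 46 h replicate 2, or the averaged pair of 54 h and 78 h, left 2 calls among 174 and 796 in all. Acta1 had a signal over 1000 in 4 profiles. They are 46 h replicate 1, the 70 h pair, the 54 h and 78 h pair and 78 h replicate 2. All 4 belong to the second array set. With them left out, circadian times 10 and 18 hold a lone profile each, and a fit with the block rests mainly on the first set. Without these 4, 6 members were rhythmic in the fit with the array set as a block, where 11.8% of all tested were.

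**Figure D3:**
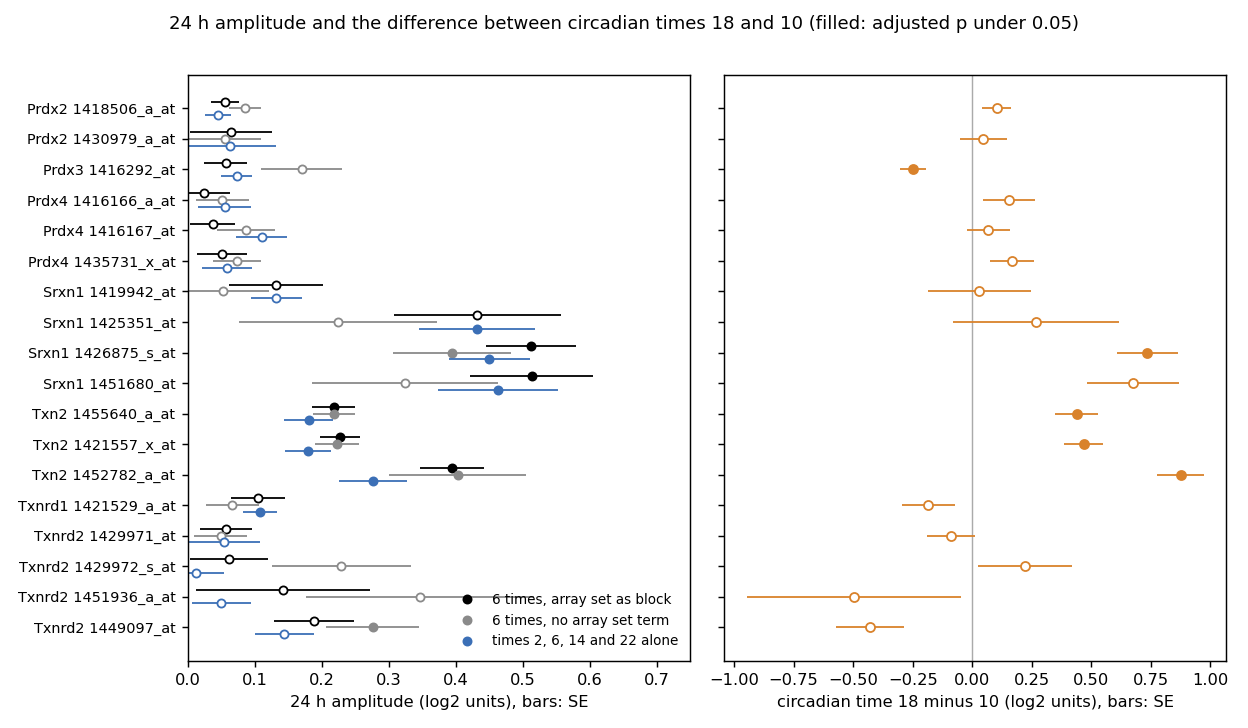
Left, the 24 h amplitude of the 18 tested probe sets in log2 units with its SE, fitted with the array set as a block (black), with no array set term (grey) and at circadian times 2, 6, 14 and 22 alone (blue). Right, circadian time 18 minus 10 in log2 units with its SE; filled points have an adjusted p under 0.05. The Srxn1 and Txn2 probe sets hold the 5 filled black points, and Prdx3 is the filled point left of 0 on the right.

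Among the peroxiredoxins none of the 6 tested probe sets passed for a 24 h rhythm in any of the 3 fits. With the array set as a block they had amplitudes of 0.02 to 0.06 log2 units and adjusted p-values of 0.164 to 0.908 (limma). Prdx3, the peroxiredoxin of mitochondria, read 13.12, 13.03 and 13.10 at circadian time 2, 13.10, 13.08 and 12.97 at 6, 13.02, 13.04 and 13.02 at 14, and 13.21, 13.18 and 13.09 at 22. In the second array set it read 12.82, 12.80 and 12.77 at circadian time 10 and 12.50, 12.60 and 12.54 at 18. All 6 profiles of the second set lay below all 12 of the first, and circadian time 18 lay below 10 without overlap. Its amplitude was 0.06 ± 0.03 (limma, adjusted p = 0.45), the fitted difference of the second set was -0.38 ± 0.05, and circadian time 18 was lower than 10 by a difference of -0.25 ± 0.06 (adjusted p = 0.0453). That call was lost under 8 of 28 alternatives, among them without 78 h replicate 2 (adjusted p = 0.055) and with no filter on low signal (adjusted p = 0.0862), over a range of adjusted p from 0.00283 to 0.388. The summed cortex markers were 67996 to 72260 at circadian time 10 and 61135 to 75092 at 18, and the muscle sums were 1161 to 14466 and 1806 to 39415. The liver sums were 1871 to 2331 and 2337 to 18677, the only marker list without overlap between these times. The part of these markers in the difference of Prdx3 was not tested.

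Prdx2, the peroxiredoxin abundant in red blood cells and in cytosol, held a narrow range. Its probe set 1418506_a_at had means from 12.65 ± 0.03 (SD, n = 3) at circadian time 10 to 12.87 ± 0.02 at 22, with an amplitude of 0.06 ± 0.02 (limma, adjusted p = 0.164). Circadian time 10 lay at 12.61 to 12.68, below the 12.77 to 12.91 of circadian time 2, and overlapped the 12.67 to 12.80 of circadian time 18. For 1430979_a_at the means ran from 10.66 ± 0.11 at circadian time 14 to 10.81 ± 0.06 at 2, and 1 profile of circadian time 6 read 10.25 beside 10.87 and 11.00. The 3 red blood cell markers summed to 1093 to 1554 at circadian time 10, where Prdx2 1418506_a_at had its lowest mean, and to 821 to 1724 at 18. Of them Hba-a1 read 9.43 to 10.16 at circadian time 10, against 7.87 to 8.32 in the first set. Alas2 and Slc4a1 at circadian time 10 lay within their ranges of the first set. The part of these markers in the level of Prdx2 was not tested.

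Prdx4, the peroxiredoxin of the endoplasmic reticulum, gave probe sets that did not move together. Means of 1416166_a_at ran from 10.66 ± 0.15 at circadian time 10 to 10.89 ± 0.13 at 2, and those of 1435731_x_at from 10.68 ± 0.09 at 10 to 10.94 ± 0.10 at 2. Those of 1416167_at ran the other way over the array sets, from 10.58 ± 0.13 at circadian time 22 to 10.94 ± 0.07 at 18. With set means taken off, 1416166_a_at correlated with 1435731_x_at at r = 0.89 and with 1416167_at at r = 0.21 over 18 profiles. The untested 1431269_at had means of 6.08 to 6.55. Amplitudes of 1416166_a_at, 1435731_x_at and 1416167_at were 0.02, 0.05 and 0.04, with adjusted p-values of 0.908, 0.596 and 0.72.

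**Figure D4:**
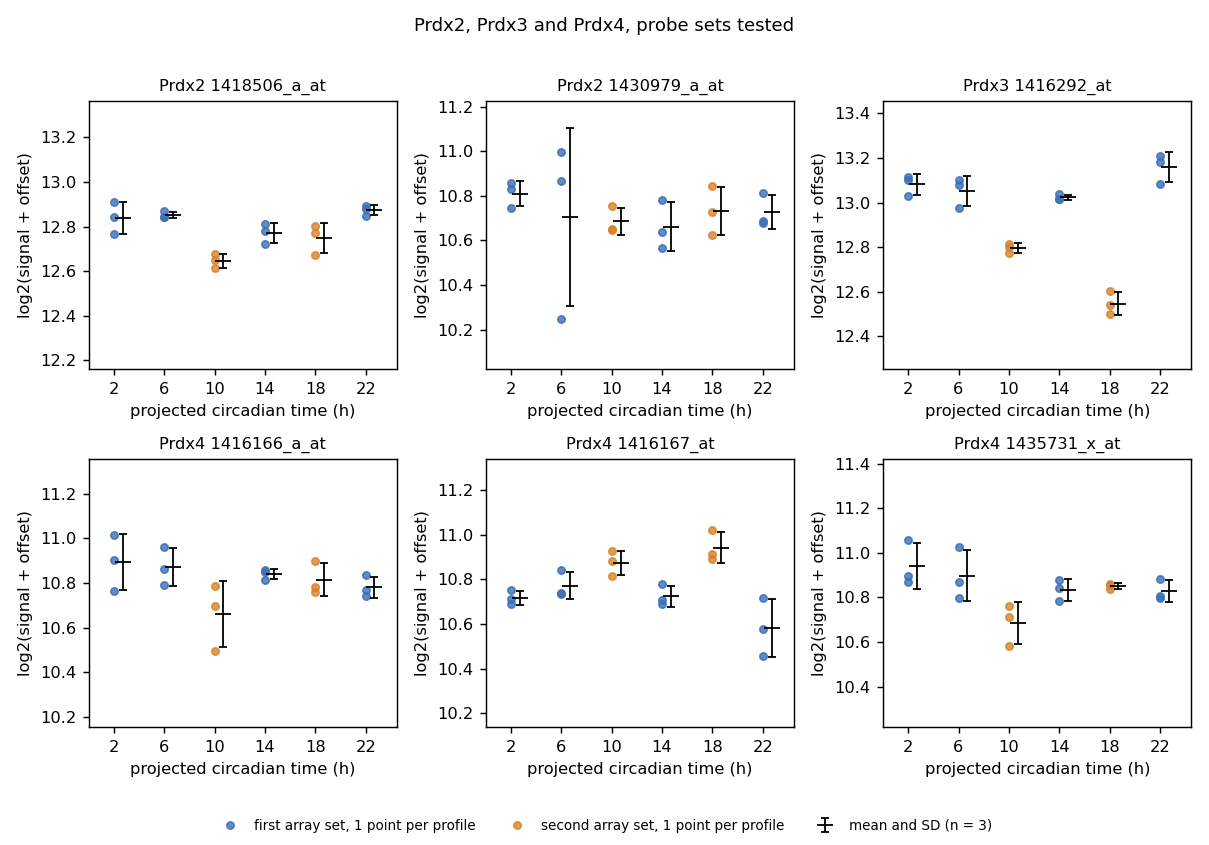
Log2(signal + offset) of the 6 tested probe sets of Prdx2, Prdx3 and Prdx4 (vertical axes, each with its own range) at the 6 projected circadian times in hours (horizontal axes), blue for profiles of the first array set and orange for the second, with the mean and SD of 3 profiles. Prdx3 has means of 12.80 and 12.55 at circadian times 10 and 18, below 13.02 to 13.16 at the other times.

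The thioredoxin reductases use NADPH, Txnrd1 mainly in the cytosol and Txnrd2 in mitochondria. Txnrd1 1421529_a_at read 11.24, 11.20 and 11.22 at circadian time 2, 11.12, 11.20 and 11.31 at 6, 11.37, 11.46 and 11.40 at 14, 11.29, 11.30 and 11.25 at 22, 11.39, 11.44 and 11.13 at 10, and 11.03, 11.24 and 11.15 at 18. Circadian time 14 lay above all other profiles of the first set. The amplitude was 0.10 ± 0.04 (limma, adjusted p = 0.175), and 0.11 ± 0.03 with the peak at 15.5 h in the first set alone, where it passed (adjusted p = 0.0386). The test of any difference among these 4 times gave an adjusted p of 0.0765.

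The untested probe sets of Txnrd1 were dim. In 1424486_a_at the profiles of circadian time 10 read at least 7.63, above the 6.42 to 6.86 of all profiles of the first set, while those of circadian time 18 ran from 5.82 to 7.65. In 1424487_x_at circadian time 10 read 7.27 to 7.53 and the profiles of the first set 6.61 to 7.31. In 1421529_a_at circadian times 10 and 14 overlapped.

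Txnrd2 had 4 tested probe sets and none passed with the array set as a block. For 1449097_at the profiles read 10.21, 10.23 and 10.21 at circadian time 2, 10.29, 9.99 and 10.27 at 6, 10.03, 9.96 and 9.85 at 14, 10.03, 10.35 and 10.19 at 22, 9.93, 9.96 and 9.90 at 10, and 9.63, 9.67 and 9.21 at 18. Circadian time 18 lay below all other profiles. Its amplitude was 0.19 ± 0.06 with a peak at 4.68 h (limma, adjusted p = 0.0809), and without the array set term it was 0.28 ± 0.07 with a peak at 3.74 h and passed (adjusted p = 0.039). It also passed without the averaged pair of 66 h and 42 h (adjusted p = 0.0305) and without that of 58 h and 82 h (adjusted p = 0.039).

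For the rest of Txnrd2 the array set was the larger difference. The fitted difference of the second set was -0.63 ± 0.10 for 1429972_s_at and -0.82 ± 0.22 for 1451936_a_at, with amplitudes of 0.06 ± 0.06 and 0.14 ± 0.13 (limma, adjusted p = 0.747 and 0.726). In 1451936_a_at the profile of 78 h replicate 2 read 6.99, beside 8.81 and 8.84 at the same circadian time. The means of 1429971_at, at 8.20 to 8.38, spanned 0.18 log2 units. Its fitted difference of the second set was 0.09 ± 0.06, and its amplitude was 0.06 ± 0.04 (limma, adjusted p = 0.56).

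**Figure D5:**
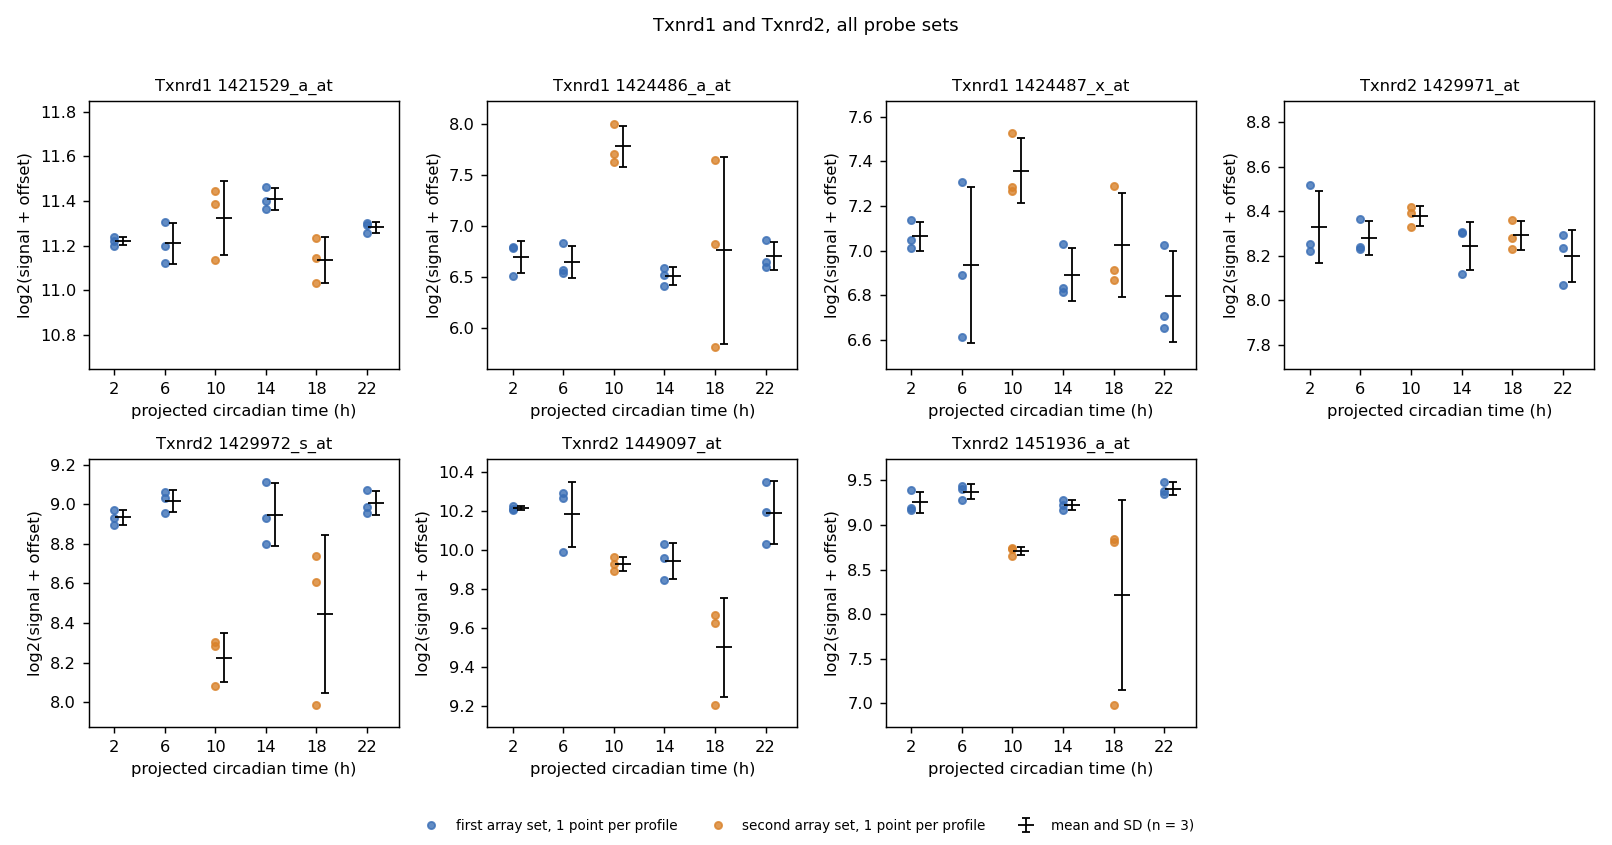
Log2(signal + offset) of the 3 probe sets of Txnrd1 and the 4 of Txnrd2 (vertical axes, each with its own range) at the 6 projected circadian times in hours (horizontal axes), blue for profiles of the first array set and orange for the second, with the mean and SD of 3 profiles. Txnrd2 1429972_s_at has means of 8.22 and 8.44 at circadian times 10 and 18 and 8.93 to 9.02 at the others.

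No member differed past the threshold between the 2 days. Over the 13 profiles that belong to 1 day alone, with circadian time as a factor, limma called 0 of the 18 members and 0 of all 27022 probe sets (0%), and 1 member and 2172 probe sets had an unadjusted p under 0.05. The lowest adjusted p of a member was 0.611, for Prdx3, which was lower on the second day by a difference of -0.06 ± 0.03. For 1426875_s_at of Srxn1 the difference was -0.10 ± 0.09, and for 1452782_a_at of Txn2 it was -0.06 ± 0.07. A p that misses the threshold does not show that the days were alike.

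Around these members, 6 of 19 tested genes of the rest of the thioredoxin system were rhythmic with the array set as a block, 5 without the term and 4 in the first set alone, beside 15.9%, 10.2% and 10.1% of all tested probe sets. Those shares stand beside the counts of the lists that follow too. List genes were read on 1 probe set each. With 1 probe set per gene the shares of all were higher, 17.8% with the block and 12.8% without the term. Sesn2, a stress-induced partner of peroxiredoxins, had an amplitude of 0.42 ± 0.06 with a peak at 7.19 h (limma, adjusted p = 0.000309). Txnip, which binds and inhibits thioredoxin, had 0.33 ± 0.05 with a peak at 7.10 h (adjusted p = 0.00118, and 0.0737 in the first set alone), and Msrb3, a methionine sulfoxide reductase, 0.24 ± 0.04 with a peak at 5.0 h (adjusted p = 0.000857). These 3 peaked in the subjective day, and 2 of the 6 called genes peaked between 12 and 24 h, as Srxn1 and Txn2 did.

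Of 22 tested genes of the glutathione system, which removes peroxide in parallel, 3 were rhythmic with the block: the glutathione transferases Gstt2 (amplitude 0.56 ± 0.10, peak 12.6 h), Gsta3 (0.44 ± 0.10, peak 18.3 h) and Gstm2 (0.26 ± 0.05, peak 4.31 h). Without the array set term 7 of the 22 passed, and in the first set 5. Gsta3 was not among these 5 (limma, adjusted p = 0.134). Among the superoxide dismutases and catalase, which make and remove hydrogen peroxide, 0 of 4 passed in any of the 3 limma fits, 0 had an unadjusted p under 0.05, and their median amplitude was 0.05. Of 10 genes that supply NADPH, 1 passed, the malic enzyme gene Me1 (0.15 ± 0.02, peak 1.54 h).

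NRF2 is the factor known to drive Srxn1 and Txnrd1 under oxidative stress, and 4 of 18 tested genes of its list were rhythmic with the block, 3 without it and 2 in the first set. Hmox1, which degrades haem, had an amplitude of 0.70 ± 0.11 with a peak at 9.80 h (limma, adjusted p = 0.00136). At circadian time 18 it was lower than at 10 by a difference of -1.46 ± 0.22 (adjusted p = 0.0142), the opposite direction to Srxn1. In the first array set Hmox1 had its highest mean at circadian time 14, as Srxn1 did, at 11.50 ± 0.23 (SD, n = 3). Its other means there were 10.92 ± 0.20 at 2, 11.29 ± 0.56 at 6 and 10.60 ± 0.14 at 22. The lowest was at 22, where Srxn1 had its lowest at 2. The part of NRF2 in these levels was not tested. Osgin1 had an amplitude of 0.32 ± 0.07 with a peak at 17.7 h (adjusted p = 0.0143), and Maff, a small MAF partner of NRF2, 0.14 ± 0.04 with a peak at 20.7 h (adjusted p = 0.0331). Neither passed without the array set term (limma, adjusted p = 0.121 and 0.126) or in the first set alone (adjusted p = 0.166 and 0.414).

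The clock genes give the scale of these amplitudes. All 6 clock genes listed were rhythmic in all 3 fits, with a median amplitude of 1.54, and Dbp reached 2.17 ± 0.16 with a peak at 9.51 h, Nr1d1 1.81 ± 0.13 at 6.94 h and Cry1 1.27 ± 0.09 at 18.1 h. Txn2 1455640_a_at, the latest of its probe sets in the fit with the block, peaked at 19.5 h.

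The genes most like Txn2 1452782_a_at, by Pearson's r over 18 profiles with the mean of each array set taken off, were Pdrg1 (r = 0.95), Cct7 (r = 0.94), Tinagl1 (r = 0.94), Mydgf (r = 0.94) and Rom1 (r = 0.93). They were picked for this likeness, so their rhythm is a description. Pdrg1 had an amplitude of 0.46 ± 0.05 and a peak at 19.1 h, and Cct7, a subunit of the cytosolic chaperonin, 0.21 ± 0.03 at 18.6 h. The peaks of Tinagl1, Mydgf and Rom1 were at 19.9, 19.1 and 17.9 h.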

How the data were processed

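Transcripts of whole adrenal glands were measured on 24 Affymetrix mouse arrays. The authors deposited 1 linear intensity per probe set and array; the summary and scaling steps are not named in the labels. Medians per array of log2 values computed from the deposited intensities lay between 8.14 and 8.32, and no further normalization was applied. Arrays give no read depth, and their number limits the precision.

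Groups follow the hours in the labels. Values were analysed as log2(intensity + 51.04). Of 45101 probe sets, 64 were controls, and those with a mean under the 40th percentile (7.88 on the log2 scale) were left out, which left 27022. In the platform annotation 34958 probe sets had 1 symbol, 932 several and 9211 were not listed.

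Fits used limma 3.58.1 (R 4.3.3, with data.table at version 1.17.8), with an intensity trend in the variance and F tests over the cosine and sine terms (24 h period), adjusted by Benjamini-Hochberg. The array set as a block was the main design, because circadian times 10 and 18 lie wholly in the second set; free levels of all 6 times and the array set cannot be told apart. Scripts were tested on simulated data. Each gene of a list was read on its brightest probe set. Of each pathway list up to 3 genes with the lowest p past the threshold were named, and the 5 genes most like the member with the lowest p.

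The members, lists and tests were chosen with earlier results of these data known. The rule for near-copies, the AP-1 type motif, the fit without profiles of high Acta1 and the replicate block were chosen after seeing the data. Suffixes of probe set names are the maker's: _x_at may cross-hybridise and _s_at may cover several transcripts. The alternatives tried were other offsets, filters, normalization, array set terms and samples left out.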

Additional observations from a re-analysis of the deposited data

How the results depend on the processing

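The alternatives were 33 settings for the count of rhythmic members (5 with the array set as a block). The sign of the difference between circadian times 18 and 10 changed under some alternative in 5 member probe sets. Neither the values of changed sign nor those with every profile passed the threshold. Over all alternatives the lowest and highest values were -0.15 and 0.54 for Srxn1 1419942_at, -0.03 and 0.75 for Srxn1 1425351_at, -0.08 and 0.10 for Prdx2 1430979_a_at, -0.16 and 0.01 for Txnrd2 1429971_at, and -0.81 and 0.12 for Txnrd2 1451936_a_at. The statement on the threshold does not cover the 0.54 and 0.75 of Srxn1. They come from the fit without replicate 2, with a lone profile at circadian time 18. With 1 probe set per gene, 7 members were tested and 2 were rhythmic with the block, against 17.8% of all tested. Without the array set term 3 were, against 12.8%. Among circadian times 2, 6, 14 and 22 there were 2 calls against 10.4%, and between 18 and 10 there were 3 against 5.99%. No filter on low signal left 3 calls without the array set term, against 5.28% of all, and 3 between 18 and 10, against 1.72%. Means of time points left 2 calls without the array set term, against 5.3% of all. With 24 columns as independent samples, which counts near-copies as replicates, 11 members differed among the 4 times, beside 8375 probe sets in all. Leaving out the profiles of high Acta1 leaves a lone profile at each of circadian times 10 and 18. Without the profiles of high Acta1, chosen after seeing the data, 6 members were rhythmic with the block, against 11.8% of all. Without the array set term 4 were, against 5.49%.

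With replicates or profiles left out, counts ran from 2 to 6 with the block, 0 to 6 without the array set term, 0 to 7 among the 4 times and 0 to 9 between 18 and 10. Without replicate 1, which leaves 1 array per time point, limma called 2, 0, 0 and 0 members among 259, 31, 4 and 1 probe sets in all, with 3, 6 and 5 at an unadjusted p under 0.05 in the last 3. Without replicate 2 it called 3, 0, 0 and 9 among 970, 176, 497 and 5647 (20.9% of all), with 6 and 6 at an unadjusted p under 0.05 where it called 0; circadian time 18 then has a lone profile, assumed to vary like those of 10. Without the array set term 3 calls were left without each of 38 h replicate 1, 46 h replicate 1, 46 h replicate 2, 58 h replicate 1, 62 h replicate 1, 66 h replicate 2, the pair of 38 h and 62 h and the pair of 70 h. Of all tested probe sets these fits called 6.39% to 7.9%, against 10.2% with every profile. Among the 4 times 1 call was left without 50 h replicate 2, beside 3.78% of all. There were 3 without each of 38 h replicate 1, 58 h replicate 1, 62 h replicate 1 and the pair of 38 h and 62 h. These fits called 5.06% to 7.39% of all, against 8.53% with every profile. Without replicate 1 the calls of Srxn1 1426875_s_at and 1451680_at and of Txn2 1455640_a_at were lost (adjusted p = 0.0542, 0.172 and 0.0532), and without replicate 2 those of Txn2 1421557_x_at and 1455640_a_at (0.0678 and 0.128). The comparison of cycles called 0 members under all its alternatives, with 0 to 3 at an unadjusted p under 0.05. The labels mark the second array of a time point by a letter and do not say what it stands for. Chosen after seeing the data, a fit with this array series as a replicate block was run over the 15 profiles of 1 series, since the other 3 average arrays of both. It called 5 members with the array set as a block, against 9.99% of all tested, and 3 without that term, against 5.58%. Among the 4 times it called 2 against 3.44%, and between 18 and 10 and between cycles 0 against 0%. The same 15 profiles with no such block gave 5, 3, 2, 0 and 0, against 9.63%, 6.68%, 3.65%, 0% and 0%. At an unadjusted p under 0.05, 7 members passed between 18 and 10 with the block and 8 without it. Dim probe sets near the filter have the largest understatement from the offset.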
